A study of Homo sapiens with 14 samples.

Results

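The collagen genes are the human genes for the chains of collagen, the protein of extracellular fibrils, networks and basement membranes. They were chosen by symbol alone, as the protein-coding genes of GENCODE release 44 on the 22 autosomes and X that are named COL, a number, A and a number. The rule gave 44 genes of the 19970 protein-coding genes on those chromosomes, and the rule uses no measured value, although the group was taken up with earlier results of these data known. By the structure their chains form, 11 are fibrillar, 6 belong to the basement membrane network, 5 to beaded filaments, 1 to anchoring fibrils, 3 to short-chain networks and 2 to the multiplexins. A further 10 are fibril-associated collagens with interrupted helices (FACIT), 4 are transmembrane collagens and 2 fall in no such class.

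The study profiled TC-32, an established Ewing sarcoma cell line labelled WT in every library and grown untreated, by CUT&RUN, in which an antibody tethers a nuclease that releases the DNA around its target. Its 14 libraries carry a set letter, A or B, of unstated meaning. Antibody to FLI1, the partner that gives the EWSR1::FLI1 fusion its DNA-binding domain, was used for 4 libraries, 2 in each set. Acetylation of histone H3 at lysine 27 (H3K27ac), a mark of active promoters and enhancers, was mapped in 2 libraries of set A. Trimethylation at lysine 27 (H3K27me3), the mark of Polycomb repression, and at lysine 9 (H3K9me3), the mark of heterochromatin, were mapped in 2 libraries each of set B. The other 4 libraries are IgG controls, 2 per set. No cells without the fusion and no treated cells were among them, and 1 cell line was used.

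Collagen chains are made in the endoplasmic reticulum, where prolines and lysines are hydroxylated and chains of the same or related genes wind into a helix before they are secreted, trimmed and crosslinked. Fibroblasts, bone and cartilage cells make most fibrillar collagen, whereas basement membrane chains are made more widely and are encoded in head-to-head gene pairs that share a promoter region. Ewing sarcoma cells are small and round, are thought to be of mesenchymal or neural crest origin, and lie in a sparse matrix, and EWSR1::FLI1 binds repeats of GGAA as well as single ETS motifs, whose core is GGAA.

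The deposited data are 10 lists of enriched regions (peaks), 1 for each library other than IgG. For FLI1 there were 35210 and 40590 regions (set A), then 38221 and 29339 (set B). H3K27ac had 10219 and 17366 regions, H3K27me3 had 21461 and 16667, and H3K9me3 had 36687 and 21770. Read totals are not part of such lists, so depth is unknown, and a gene without a region is 1 at which none was detected, not 1 shown to lack the protein or mark. The value of a region is the fold of its signal over IgG as the authors' peak caller gave it. Folds of different lists also move with each library's depth, so sets are compared by the percentile of a fold within its own list, and the folds are given beside it. RNA was not measured. As a check of the cell type, 7 of 8 Ewing sarcoma marker genes (NR0B1, NKX2-2, CCND1, STEAP1, PRKCB, LIPI and BCL11B, but not CD99) had FLI1 at the start in all 4 libraries. None of 8 fibroblast markers had FLI1 or H3K27ac at the start in every library. PDGFRA, 1 of the 8, had H3K27me3 in both replicates, against 9.47% of all genes. PDGFRB had FLI1 at the start in both set B libraries and H3K27ac there in replicate 2. No muscle, blood, endothelial or epithelial marker had FLI1 at the start in all 4 libraries either. H3K27ac was at the start in both replicates at only 1 of the 8 Ewing sarcoma markers, STEAP1, and at 1 of 3 epithelial markers, KRT8. Its absence from a start therefore does not tell these cell types apart. Over the gene and 10 kb to either side, H3K27ac was in both replicates at 4 Ewing sarcoma and 2 fibroblast markers.

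FLI1 was found at few collagen gene starts. A start is the 5′ end of the gene, and its window reaches 1 kb to either side. FLI1 regions of all 4 libraries lay in this window at 4 of 44 collagen genes (9.09%), against 33.8% of all protein-coding genes. They were COL1A1, the main chain of type I collagen in bone and tendon, COL5A1, a chain of the type V collagen that starts fibrils, COL13A1, a transmembrane collagen of neuromuscular junctions, and COL9A3, a chain of the cartilage FACIT collagen IX. COL6A1, a chain of beaded filaments, had a start region in 3 libraries. COL7A1 and COL16A1 in set A replicate 1, and COL8A1 and COL27A1 in set B replicate 1, had such a region in 1 library only. No FLI1 region was found in any library at 35 of the 44 starts (79.5%), against 45.9% of all genes.

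Set A replicate 1 had FLI1 at 7 collagen starts (15.9%), against 40.7% of all genes. Set A replicate 2 had 4 (9.09%), against 40.4%. Set B replicate 1 had 7 (15.9%), against 49.7%, and set B replicate 2 had 5 (11.4%), against 46.3%. The share of collagen genes thus lay below the share of all genes in each of the 4 lists, and the mean over the lists was 13.1% ± 3.4 (SD, n = 4). Both libraries of set A had FLI1 at 4 starts, against 36.5% of all genes, and both of set B at 5, against 44.4%. At no collagen start was FLI1 in both libraries of 1 set and neither of the other, against 1.09% of all genes for set A alone and 5.55% for set B alone.

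The DNA under the FLI1 regions at COL5A1, COL13A1 and COL1A1 is shown to let the GGAA cores be seen. Each line holds the 151 bases centred on the median summit of the libraries in hg38, plus strand. Each GGAA or its reverse complement TTCC is in capitals. None of these windows overlaps an annotated UTR.
COL5A1 upstream, chr9:134641365-134641515: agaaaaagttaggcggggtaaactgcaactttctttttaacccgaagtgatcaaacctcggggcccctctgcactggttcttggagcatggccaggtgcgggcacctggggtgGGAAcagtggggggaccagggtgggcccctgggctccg
COL5A1 intron, chr9:134642764-134642914: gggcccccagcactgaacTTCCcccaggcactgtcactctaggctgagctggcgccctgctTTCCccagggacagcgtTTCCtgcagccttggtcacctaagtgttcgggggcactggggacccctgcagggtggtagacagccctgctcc
COL13A1, chr10:69801379-69801529: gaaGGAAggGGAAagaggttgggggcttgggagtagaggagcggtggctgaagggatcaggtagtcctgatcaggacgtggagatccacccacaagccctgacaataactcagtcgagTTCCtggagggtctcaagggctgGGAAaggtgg
COL1A1, chr17:50200379-50200529: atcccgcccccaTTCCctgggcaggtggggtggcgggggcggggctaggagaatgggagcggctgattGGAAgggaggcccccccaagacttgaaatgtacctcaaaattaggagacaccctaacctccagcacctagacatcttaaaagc

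The COL13A1 window held 4 GGAA cores, the second COL5A1 window 3, the COL1A1 window 2 and the first COL5A1 window 1. Neither 2 adjacent cores (GGAAGGAA) nor the extended ETS motif CCGGAAGT, both searched on both strands, occurred in any of these 4 windows. The window of the COL9A3 start region, which is not shown, held 0 GGAA, and its middle 31 bases occur 2 times in hg38. Across all 16163 FLI1 regions shared by the 4 libraries, 85.5% held at least 1 GGAA in the 151 bases at the summit.

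At COL1A1 (chr17:50184101-50201632, minus strand), the start region spanned chr17:50199870-50201104, in an intron 1.18 kb after the gene start. Its fold over IgG was 15.1 and 12.1 for set A against 14.6 and 14.8 for set B, and the sets overlapped. Within each list this region stood at percentiles 85.8, 81.7, 82 and 84.9, the least spread among the collagen genes compared between the sets. The difference in mean percentile between sets was 0.3 (exact permutation test of the 4 libraries, two-sided, p = 1). H3K27ac, H3K27me3 and H3K9me3 regions did not occur at this start in any list. COL1A2 (chr7:94394895-94431227), which encodes the other chain of type I collagen, had no region of any of the 10 lists at its start or over the gene and 10 kb to either side.

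COL5A1 (chr9:134641803-134844843, plus strand) had FLI1 regions on both sides of its start. The upstream region, chr9:134641185-134641959, had its summit 0.363 kb before the start and folds of 13.6 and 16.8 for set A against 9.66 and 8.77 for set B. Both set A values lay above both set B values. The region in the intron, 1.04 kb after the start, had folds of 6.30, 5.95, 6.74 and 5.80 in the same order. The folds of the sets overlapped, whereas their percentiles, 43.3 and 40.8 against 33.5 and 20.3, did not. By percentile of the strongest region of the gene, COL5A1 stood at 83.3 and 89.2 for set A against 61.9 and 56.8 for set B. That difference of 26.9 had p = 0.333 in the exact permutation test, which is the smallest p that 2 libraries against 2 can give.

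COL13A1 (chr10:69801880-69964275, plus strand) was the only collagen gene with FLI1 in all 4 libraries and H3K27me3 in both replicates at its start, 2.27% of the collagen genes against 0.13% of all genes. The FLI1 region, chr10:69801244-69801745, lay upstream and had folds of 8.21 and 5.58 for set A against 7.49 and 5.18 for set B. The H3K27me3 regions began inside the gene, at chr10:69802138-69804008 in replicate 1 (fold 4.90) and chr10:69802754-69804104 in replicate 2 (fold 5.08). The FLI1 region of all 4 libraries shared no base with them. A further FLI1 region at the start, chr10:69801946-69802145, was found in set B replicate 1 alone, with a fold of 5.74. It overlapped the H3K27me3 region of replicate 1. Since each list comes from many cells and both alleles, presence in the same cells cannot be told apart from presence in different ones. Another FLI1 region of all 4 libraries lay in a COL13A1 intron, 135 kb after the start. Its folds were 13.4 and 13 for set A against 12.7 and 6.80 for set B, which did not overlap.

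The COL9A3 region had nearly equal folds of 7.74 and 7.85 for set A against 8.40 and 7.73 for set B. The start used there belongs to a transcript that is not annotated as protein-coding, and counting starts of protein-coding transcripts left 3 collagen genes with FLI1 at a start, without COL9A3.

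H3K27me3 was the mark found at the most collagen starts. It was present in both replicates at 14 of 44 genes (31.8%), against 9.47% of all genes. Replicate 1 alone had 19 (43.2%), against 11.5%, and replicate 2 had the same 14 (31.8%), against 9.8%. The 5 genes of replicate 1 only were COL14A1, COL18A1, COL4A1, COL4A2 and COL4A5. By class, the mark was at 4 of 10 FACIT genes (COL12A1, COL19A1, COL20A1 and COL22A1), 3 of 4 transmembrane genes (COL13A1, COL23A1 and COL25A1) and 3 of 5 beaded filament genes (COL6A3, COL6A5 and COL6A6). The others were COL2A1 and COL27A1 of 11 fibrillar genes, COL4A6 of 6 basement membrane genes and COL15A1 of 2 multiplexins.

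**Figure D1:**
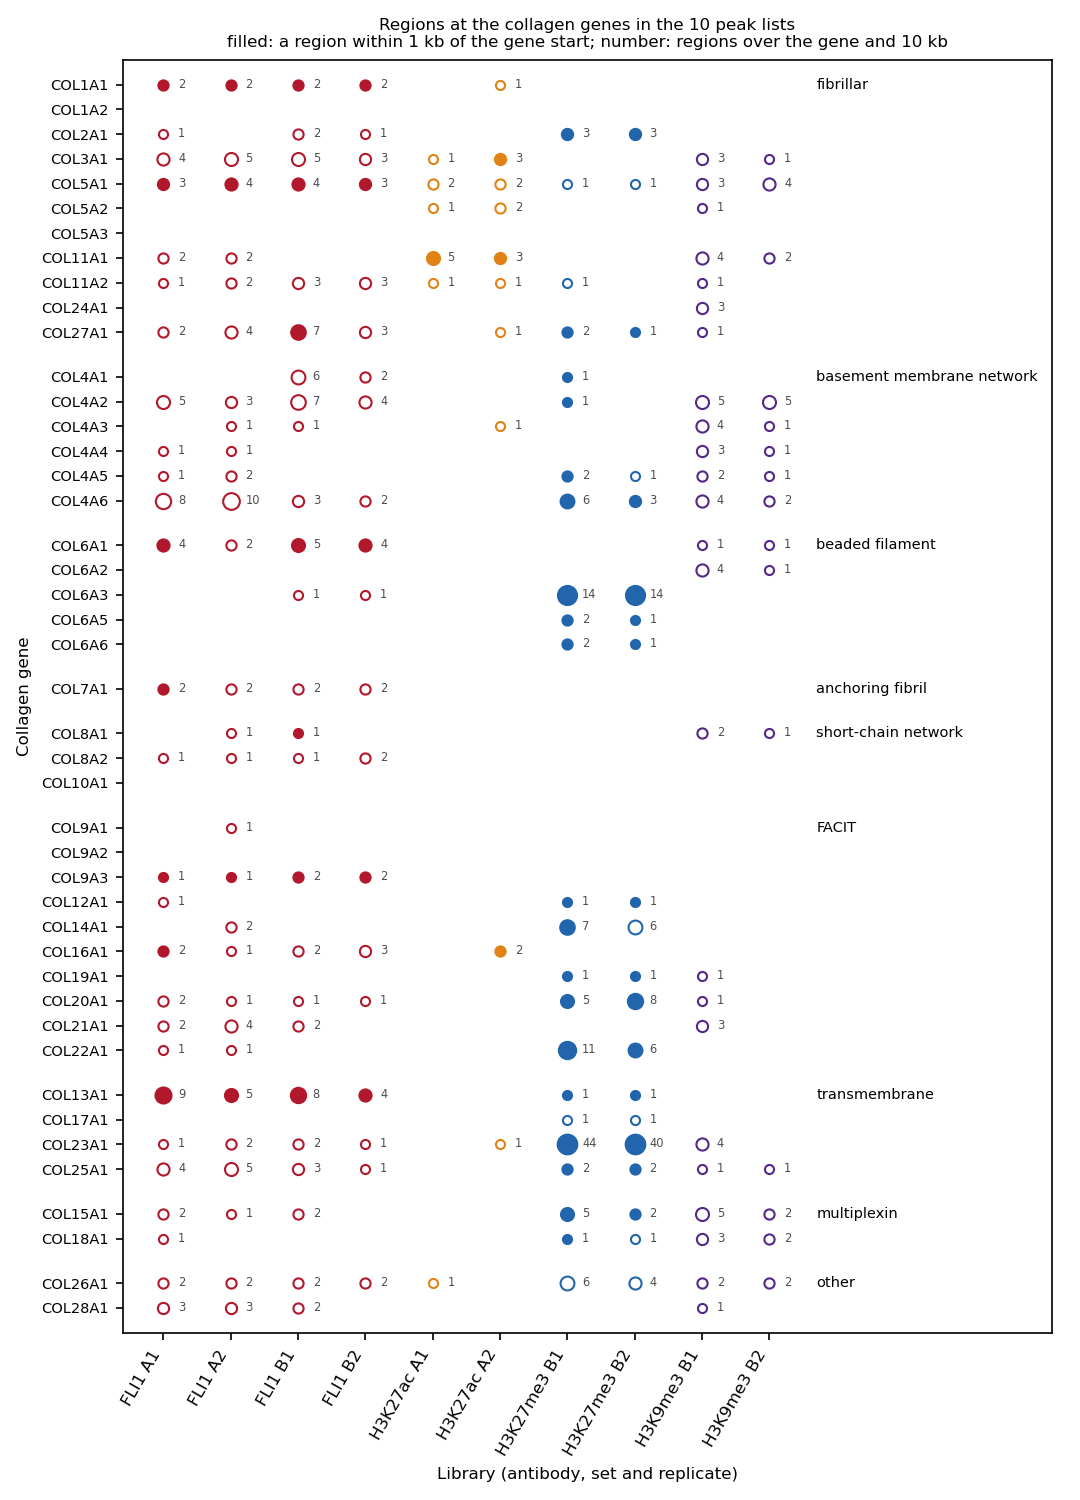
Regions at each collagen gene (rows, by class) in each of the 10 lists (columns). Filled circles mark a region within 1 kb of the gene start, open circles a region only elsewhere over the gene and 10 kb to either side, and the number beside a circle counts the regions there, with larger circles for more regions, up to 15. H3K27me3 circles are filled in both replicates at 14 genes, FLI1 circles in all 4 libraries at 4.

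COL2A1, the chain of cartilage fibrils, had the highest start folds of H3K27me3 among the collagen genes in replicate 2. Its start region was chr12:48001664-48011604 in replicate 1, with a fold of 7.64, and chr12:48001820-48006340 in replicate 2, with a fold of 8.51. These folds stood at percentiles 99 and 99.9 of their lists. A FLI1 region in a COL2A1 intron, 2.8 kb after the start, overlapped H3K27me3 of both replicates and was found in 3 libraries, with folds of 6.11, 13.9 and 4.91. COL12A1, a FACIT collagen on the surface of type I fibrils, had folds of 7.79 and 6.22 over regions 7.22 and 6.63 kb wide. The replicates at COL12A1 lay at percentiles 99.2 and 95.

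COL15A1, a multiplexin of the basement membrane zone, had start folds of 6.82 and 5.81. COL20A1, a FACIT collagen, had 6.89 and 5.86, and COL22A1, a FACIT collagen of the muscle and tendon junction, had 5.88 and 5.19. These 3 genes stood at percentile 72.9 or above in both lists. COL19A1, also a FACIT collagen, had 4.98 and 5.66, in regions that also lie within 1 kb of the start of LMBRD1. The transmembrane collagens COL25A1 and COL23A1 had 5.59 and 5.29, and 4.86 and 4.17. COL23A1 was therefore marked at its start but low in its lists, at percentiles 60 and 9.28.

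In the beaded filament group, COL6A5 had start folds of 7.26 and 5.01, COL6A3 had 5.31 and 5.09, and COL6A6 had 4.88 and 5.11. All 3 encode chains that take the third place in collagen VI beside the COL6A1 and COL6A2 chains. COL6A1 and COL6A2, the other chains, had no H3K27me3 region at the start or over the gene in either replicate. COL27A1, a fibrillar collagen of cartilage, had 6.23 and 4.16, and COL4A6 had 5.44 and 4.67. At COL27A1 the replicates differed most in rank, at percentiles 94.1 and 8.45.

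Neighbouring genes share some of these regions. COL4A5 and COL4A6 start 341 bases apart on X, and the region at chrX:108437498-108438882 in replicate 1 lies nearer COL4A6. In replicate 2 it was within 1 kb of the COL4A6 start but not of the COL4A5 start, which is why COL4A6 alone is counted. COL4A1 and COL4A2 start 1345 bases apart and shared the 1 replicate 1 region, chr13:110306483-110308490, with a fold of 4.11 and a percentile of 7.56. COL4A3 and COL4A4, 171 bases apart, had no region of any list at their starts. COL6A5 and COL6A6 lie 32.3 kb apart and had separate regions.

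Over the gene and 10 kb to either side, a window that includes the start, H3K27me3 was present in both replicates at 20 of 44 genes (45.5%), against 17.6% of all genes. Replicate 1 had it at 23 (52.3%), against 21.4%, and replicate 2 at 20, against 18%. The collagen genes are long, with a median of 145 kb against 27.5 kb for all genes, so density is given as well. In the joined windows of the collagen genes, 7.49 Mb in all, H3K27me3 regions numbered 1.56 and 1.29 per 100 kb in the 2 replicates, against 0.844 and 0.689 over all genes. They covered 3.85% and 2.62% of the bases, against 2.12% and 1.42%. Much of this lay in COL23A1, which held 44 of the 117 regions in replicate 1 and 40 of the 97 in replicate 2. Without COL23A1, a choice made after its values were seen, density was 1.03 and 0.801 per 100 kb and cover was 2.29% and 1.5%, close to the shares of all genes. Mean cover per gene of bases in both lists was 2.75% for the collagen genes and 1.87% for all genes, with a median of 0 in each.

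The cover was uneven among the genes. In COL20A1, 28.1 and 29.3 kb of the window were covered, or 45.5% and 47.5%. COL23A1 had 44 and 40 separate regions that covered 125 and 89 kb of its 352.9 kb gene and flanks, 33.5% and 23.9%. COL6A3 had 14 regions in each replicate, 38 and 24.9 kb, or 34.4% and 22.6%. COL2A1 had 14.7 and 10.5 kb, 28.4% and 20.4%. Below these 4 genes, cover dropped to 5.09% and 4.67% at COL12A1 and less elsewhere, except for 5.86% and 5.33% in replicate 1 at COL22A1 and COL15A1.

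**Figure D2:**
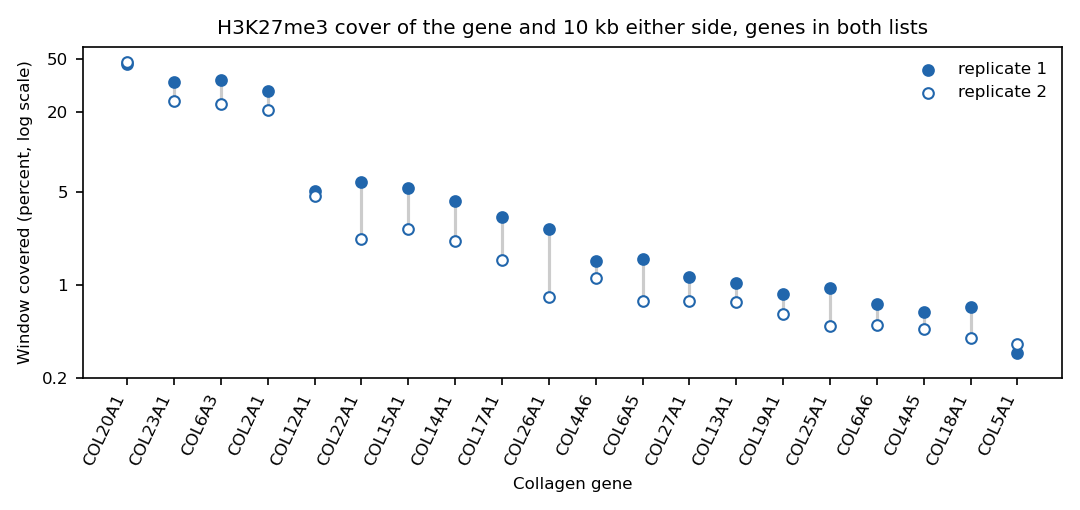
Percent of the gene and 10 kb to either side covered by H3K27me3 regions (log axis) for the 20 collagen genes with a region in both lists. Filled and open points are replicates 1 and 2. COL20A1, COL23A1, COL6A3 and COL2A1 lie above 20% in both replicates, and the other 16 lie below 6%.

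Base composition at the starts was counted because H3K27me3 is known to lie over CpG islands. In the 1001 bases centred on the start, the collagen genes held a median of 45.5 CpG, against 58 for all genes. The 14 with H3K27me3 in both lists had a median of 51.5, the 25 with it in neither had 49, and all genes with the mark had 73.5. Among the 12 collagen genes with 0 to 19 CpG, 25% had H3K27me3, against 4.32% of all genes in that range. From 20 to 59 CpG it was 25% of 16 genes, against 8.91%, and from 60 upwards 43.8% of 16 genes, against 12.2%. For FLI1, the shares in the same ranges were 0, 12.5% and 12.5%, against 3.86%, 32.9% and 48.2%. In the lowest range FLI1 is found at so few genes of any kind that the 0 among 12 collagen genes carries no information.

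H3K27ac was found at 1 collagen start in both replicates, or 2.27%, against 11.3% of all genes. That gene was COL11A1, a fibrillar collagen of cartilage, with start folds of 3.78 and 5.69. Replicate 2 alone had 3 (6.82%), against 19.6%, the further genes being COL16A1 with a fold of 4.46 and COL3A1, the main chain of type III collagen, with 5.13. No collagen gene had FLI1 in all 4 libraries together with H3K27ac in both at the start, against 8.07% of all genes.

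Over the gene and 10 kb, H3K27ac was present in both replicates at 5 genes (11.4%), against 28.3%. Replicate 1 had it at 6 (13.6%), against 32%, and replicate 2 at 10 (22.7%), against 41.6%. All 5 were fibrillar, namely COL11A1, COL3A1, COL5A2, COL11A2 and COL5A1. COL11A1 held 5 and 3 regions, and at COL5A1 the replicates had regions at different places. COL5A2, which encodes a partner of COL5A1 in type V collagen, had its strongest region at folds of 6.03 and 6.10. The H3K27ac region at COL11A2 lay at the starts of its neighbours RXRB and SLC39A7. None of the 33 genes of the other classes had H3K27ac in both replicates.

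H3K9me3 was found at no collagen start in either list, against 1.39% of all genes in both, 2.6% in replicate 1 and 1.53% in replicate 2. At such shares 44 genes would hold few or none. Over the gene and 10 kb H3K9me3 was present in both replicates at 15 genes (34.1%), against 25.3%. Replicate 1 had it at 24 (54.5%), against 34.2%, and replicate 2 at 15, against 26.1%. By density the order was the reverse, with 0.814 and 0.36 regions per 100 kb in the collagen windows against 1.22 and 0.748 over all genes, and 0.95% and 0.499% of bases covered against 2.21% and 1.5%. Of 6 basement membrane genes, 5 had the mark (COL4A2, COL4A3, COL4A4, COL4A5 and COL4A6). These 5 are 150.2 to 283.9 kb long, and bases in both lists made up only 0.0796% to 2.26% of their windows. In the gene alone COL4A2, COL4A5 and COL4A6 kept it, and at a −log10 q of at least 5 only COL4A3 did. COL4A2 held 5 regions in each replicate. The highest fold of replicate 1 was at COL8A1, a short-chain collagen of vessel walls, with 7.74 and 5.81 in the 2 replicates. That of replicate 2 was at COL4A3, a chain of the kidney filter, with 7.32 and 6.64. At both genes these regions lay outside the gene, in the flank past its end.

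**Figure D3:**
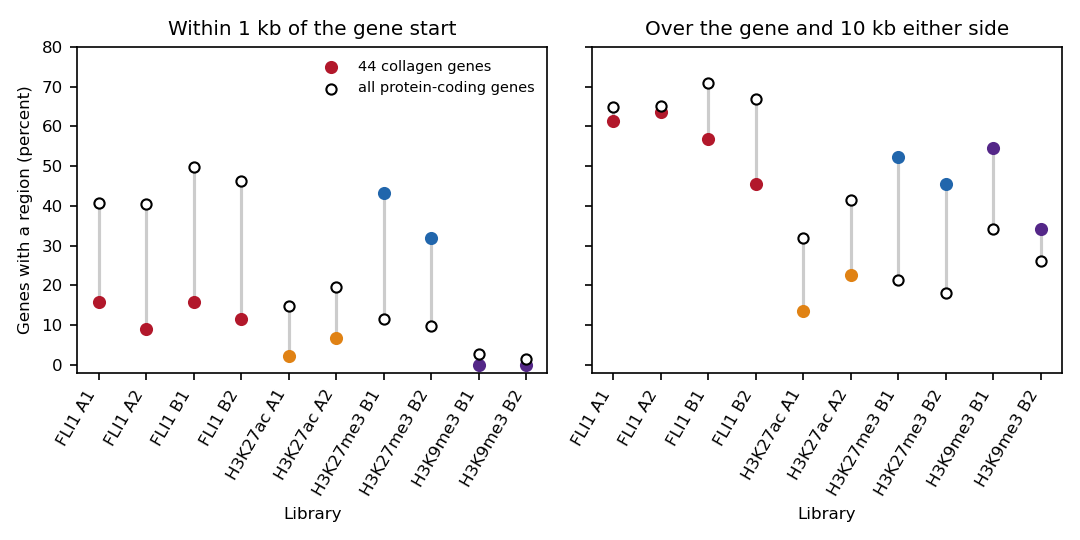
Percent of genes with a region in each list, within 1 kb of the start (left) and over the gene and 10 kb (right), for the 44 collagen genes (filled) and all 19970 protein-coding genes (open). At the start the collagen genes lie below all genes in the FLI1 and H3K27ac lists and above them in both H3K27me3 lists, at 43.2% and 31.8%.

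The wider window of the gene and 10 kb includes the start. In it FLI1 was present in all 4 libraries at 17 collagen genes (38.6%), against 56.3% of all genes. By class these were 5 of 11 fibrillar, 3 of 10 FACIT, 3 of 4 transmembrane and 2 of 6 basement membrane genes, with 1 each of the beaded filament, anchoring, short-chain and other genes and no multiplexin. The set A libraries had FLI1 at 27 (61.4%) and 28 (63.6%) collagen genes, against 64.8% and 65.2% of all genes. The set B libraries had 25 (56.8%) and 20 (45.5%), against 70.9% and 67%. Both libraries of set A had it at 24 (54.5%), against 60.9%, and both of set B at 20 (45.5%), against 65.2%. FLI1 was found in no library at 11 genes (25%), against 23.5%. FLI1 density was 0.867 ± 0.173 regions per 100 kb (SD, n = 4) in the collagen windows and 1.70 ± 0.195 over all genes. It ranged from 0.614 to 1 in the former and from 1.45 to 1.86 in the latter, with no overlap between them. These ranges are between lists of the same genes, not among genes. Over the whole genome, the densities were 1.16 and 1.34 for set A and 1.26 and 0.968 for set B, a range that meets the collagen one. Each list was still lower in the collagen windows, at 0.908, 0.948, 1 and 0.614 in the same order. Besides COL1A2, the genes COL9A2, COL10A1 and COL5A3 had no region of any list over this window, which makes 4 genes or 9.09% of the collagen genes against 10.3% of all.

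The lists placed 122 distinct FLI1 regions over the collagen genes, once overlapping regions were joined across libraries. Of these, 55 came from 1 library, 30 from 2, 18 from 3 and 19 from all 4. The 19 shared regions were 15.6% of the 122, against 29.3% of the 55109 joined regions of the whole genome. They lay at 14 genes (31.8%), against 53.1% of all genes with such a region. The summit was in an intron at 11 of the 19, in the upstream flank at 5 and in the downstream flank at 3. Both H3K27ac lists overlapped 1 of the 19, the region at RXRB near COL11A2, against 14.1% of all regions shared by the 4 libraries. H3K27me3 and H3K9me3 of both replicates overlapped none, against 0.204% and 1.1%.

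Several of the strongest regions in the collagen windows lay at the starts of neighbours. Of the 5 genes with the highest mean percentile of a shared region, only COL1A1 had it within its own gene. The region counted for COL8A2, a chain of corneal basement membrane, was at the start of ADPRS, with folds of 15.2, 24.2, 30.9 and 20.7 in set A replicates 1 and 2 and set B replicates 1 and 2. That of COL16A1, a FACIT collagen, was at the start of PEF1, with folds of 18.5, 15.2, 33.2 and 17.1. That of COL11A2 was at RXRB and SLC39A7, with 13.9, 12.3, 20 and 9.25. The region of COL7A1, the chain of the fibrils that anchor skin, lay in the neighbour PFKFB4, with 10.7, 11.5, 15 and 12.9. In percentile within each list, the sets overlapped at all 4 of these genes.

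Within genes, COL3A1 (chr2:188974373-189012746) held shared FLI1 regions in introns 2.27 and 27.8 kb after its start. The nearer had folds of 15 and 17.5 for set A against 11.3 and 7.12 for set B, both set A values above both set B values. The farther had 8.94, 11.2, 17.2 and 8.59, and the sets overlapped. COL6A1 (chr21:45981770-46005050) had a shared region 7.83 kb upstream with folds of 9.23, 11.1, 14.3 and 12.4. At its own start the folds were 5.51 in set A replicate 1, 9.49 and 6.34 for set B, with no region in the second library of set A. In percentile the upstream region overlapped between the sets, at 68.9 and 78.9 against 81.4 and 77.7. COL6A2 (chr21:46098112-46132848) had no FLI1 region over its window, and COL20A1 had 1 shared region in an intron, with 7.09, 10.2, 8.49 and 10.5.

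The largest folds of any FLI1 region in the collagen windows were at COL27A1, named here after its values were seen. Its intron region, chr9:114196637-114198349, lies 41.8 kb after the start and had folds of 55.0 and 49.8 for set A against 7.33 and 7.43 for set B. In percentile it stood at 98.5 and 98.1 against 40.9 and 42.5, with both set A values above both set B values. Another intron region of COL27A1, 21.8 kb after the start, had folds of 16, 15.6, 13.5 and 7.18. The summit of the former is shown because its fold differed most between the sets, with GGAA and TTCC in capitals in hg38, plus strand.
COL27A1, chr9:114197214-114197364: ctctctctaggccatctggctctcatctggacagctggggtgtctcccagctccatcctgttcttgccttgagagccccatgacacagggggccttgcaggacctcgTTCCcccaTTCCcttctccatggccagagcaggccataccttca
The window held 2 cores, both as TTCC, and no run of adjacent cores.

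**Figure D4:**
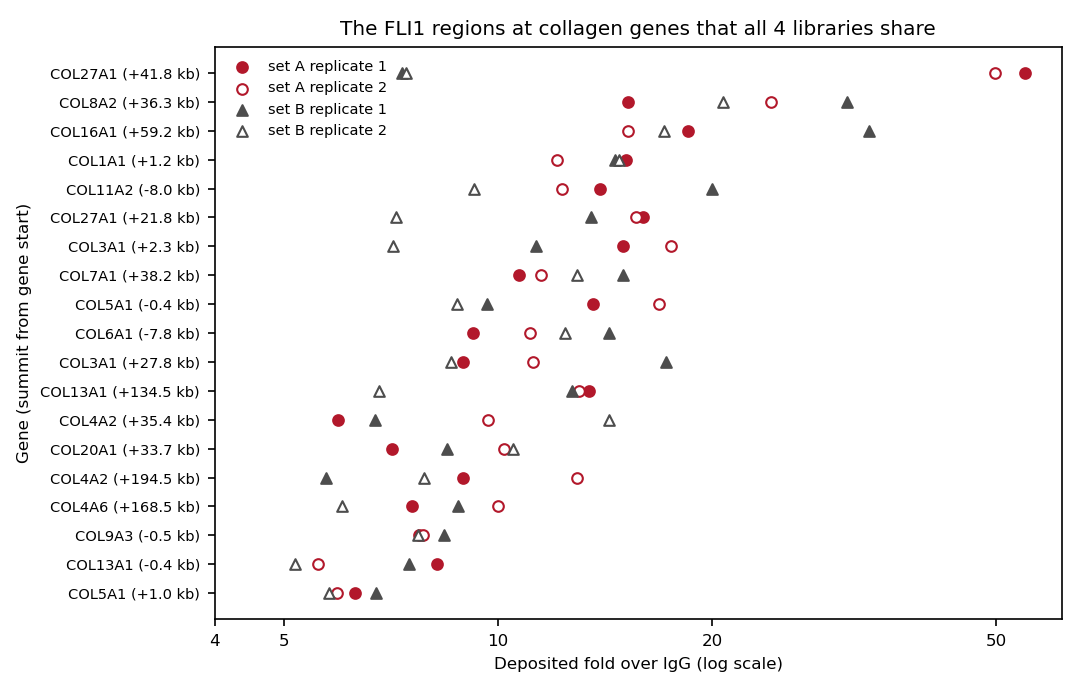
Deposited fold over IgG (log axis) of the 19 FLI1 regions in the collagen windows that all 4 libraries share, each named by its gene and the distance of its summit from the gene start. Circles are set A and triangles set B, filled for replicate 1 and open for replicate 2. The COL27A1 region at 41.8 kb has folds of 55.0 and 49.8 for set A against 7.33 and 7.43 for set B.

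FLI1 was present over the gene and 10 kb in both libraries of set A and neither of set B at 4 genes, COL11A1, COL4A4, COL22A1 and COL4A5 (9.09%, against 1.94% of all genes). The reverse held at 2 genes, COL6A3 and COL4A1 (4.55%, against 4.14%). The 4 genes of set A are 161.7 to 325.8 kb long, against a median of 27.5 kb for all genes. Counted by region, the shares were closer. Regions in both libraries of set A and neither of set B were 12.3% of the collagen regions, against 10.3% of all regions. For the reverse the shares were 8.2% and 7.15%. At COL22A1, 1 region in an intron had folds of 9.03 and 7.06. At COL11A1, a region 3.42 kb upstream had folds of 5.31 and 7.71. At COL4A4, a chain of the kidney filter, and at COL4A5, the libraries of set A had regions at different places, so no region was shared. The percentiles of the strongest regions were 68 and 56.2 at COL22A1, 24.6 and 61.9 at COL11A1, 6.55 and 38.4 at COL4A4 and 11.9 and 49 at COL4A5.

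COL4A1 (chr13:110148963-110307157, minus strand), a chain of basement membrane found in most tissues, had 6 and 2 FLI1 regions in the libraries of set B and none in either library of set A. The strongest, chr13:110255273-110256021, lay in an intron 51.5 kb after the start with folds of 11.9 and 11.5. A second, 59.3 kb after the start, had folds of 8.94 and 8.59. Percentiles of the strongest were 73.6 and 74.2, and the difference of set A from set B was -73.9 with p = 0.333 in the exact permutation test. The window of COL4A2 (chr13:110305812-110513209), the partner that is read in the other direction, held FLI1 in all 4 libraries. Its regions shared by all 4 lay 35.4 kb after its start, with folds of 5.97, 9.69, 6.72 and 14.3, and 195 kb after it, with 8.93, 12.9, 5.74 and 7.87.

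**Figure D5:**
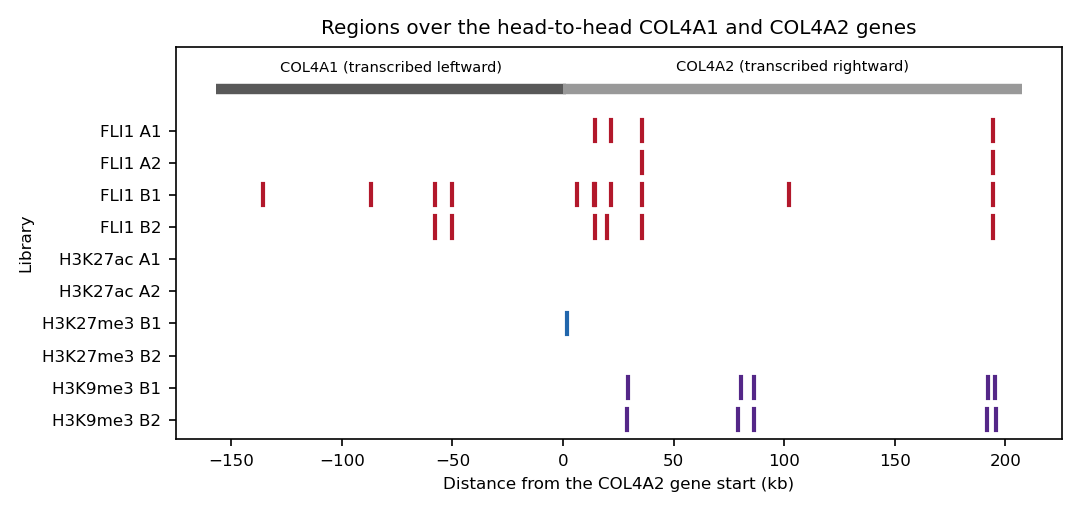
Regions over the COL4A1 and COL4A2 genes by library, against distance from the COL4A2 start in kb. Each tick is the middle of a region, FLI1 regions being joined across libraries, and grey bars are the genes. In the COL4A1 gene FLI1 ticks occur in the set B libraries only, whereas 2 positions in COL4A2 have ticks in all 4 libraries.

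FLI1 regions over GGAA repeats were counted next, since such repeats are known targets of the fusion. A region shared by all 4 libraries with a run of at least 4 adjacent GGAA or TTCC occurred at 0 of 44 genes, against 3.24% of all genes, a share at which 44 genes would hold few or none. Runs of this length lay under 2 regions found in fewer libraries, 1 of them in an intron of COL4A1 137 kb after the start, with 8 units and a fold of 5.26 in set B replicate 1 alone. At the summit of the 19 shared regions, 13 held a GGAA, against 85.5% of all shared regions, 0 held GGAAGGAA, against 4.54%, and 1 held CCGGAAGT, against 1.7%. The summit of the strongest COL4A1 region, found in set B only, is shown because its GGAA, in capitals, are spaced rather than adjacent, in hg38, plus strand.
COL4A1, chr13:110255538-110255688: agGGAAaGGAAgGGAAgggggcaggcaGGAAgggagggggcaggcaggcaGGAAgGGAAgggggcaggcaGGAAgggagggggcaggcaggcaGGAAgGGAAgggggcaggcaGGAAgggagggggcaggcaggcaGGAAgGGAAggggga
The COL4A1 window held 12 GGAA spread over a tandem repeat of longer units, with no 4 of them adjacent. The middle 31 bases of the COL4A1 window occur 3 times in hg38.

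The percentile of the strongest FLI1 region was compared between the sets for 17 genes. The strongest region was taken in each library, so the libraries of a gene can differ in the region compared. At COL3A1 it was the region at 2.27 kb in set A and that at 27.8 kb in set B. The region also differed between libraries at COL4A2 and COL9A3. COL8A2 stood at 90.1 in set A and 94.9 in set B, COL16A1 at 88.8 and 93.2, COL7A1 at 77.5 and 81.2 and COL11A2 at 82.8 and 75.8. COL3A1 stood at 87.7 and 71.3, COL4A2 at 75.1 and 83.1 and COL6A1 at 73.9 and 79.6. In these 7 genes, as in COL1A1, the libraries of the sets overlapped. A list without a region counts as percentile 0. The libraries did not overlap at COL5A1 (86.2 and 59.3), COL13A1 (83.2 and 55.8), COL9A3 (61 and 51.1) and COL6A3 (0 and 10), or at the other genes absent from 1 set. With 2 libraries against 2, no p of the exact test can fall below 0.333. The labels do not say that the replicates came from separate cultures, so the spread may be technical.

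At genes that process, bind or degrade collagen, the shares were closer to those of all genes. Of 53 such genes, 17 (32.1%) had FLI1 at the start in all 4 libraries, 6 (11.3%) had H3K27ac and 6 (11.3%) had H3K27me3 in both, and 0 had H3K9me3. Over all genes the same shares were 33.8%, 11.3%, 9.47% and 1.39%. FLI1 was at 7 of 12 genes for hydroxylation of prolines and lysines (CRTAP, P3H1, P3H4, P4HA1, P4HA2, P4HB and PLOD3) and at both genes for glycosylation, COLGALT1 and COLGALT2. It was at 4 of 10 genes for folding and secretion, FKBP10, FKBP14, PPIB and SERPINH1, the last being the collagen chaperone. FKBP10 and P3H4 had the same folds in all 4 libraries (8.54, 4.51, 7.49 and 8.41) and are counted in both classes. P4HB, the subunit that holds prolyl hydroxylase in solution, had folds of 136 and 209 for set A against 56 and 25.3 for set B.

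FLI1 in all 4 libraries and H3K27ac in both were found together at 3 of the 53 (5.66%), against 8.07% of all genes. P3H1, a prolyl hydroxylase, had FLI1 folds of 9.5, 8.92, 17.2 and 13 and H3K27ac folds of 5.69 and 5.74. DDR2, a receptor kinase for fibrillar collagen, had 6.56, 5.66, 11.6 and 14.2, with 6.58 and 5.61. ITGB1, the integrin chain shared by the collagen-binding receptors, had 7.36, 11.3, 5.27 and 11.6, with 4.35 and 7.09.

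H3K27me3 in both replicates lay at 6 starts, 4 of them among the 8 genes for propeptide cleavage and 2 among the 10 receptors, against 9.47% of all genes. None of the 8 had FLI1 at the start in all 4 libraries, against 33.8%, and classes of this size allow only a description. The 4 proteases were ADAMTS2 with folds of 6.09 and 5.56, ADAMTS3 with 4.99 and 5.31, ADAMTS14 with 5.71 and 5.56, and TLL2 with 5.33 and 4.85. Of the receptors, the collagen-binding integrin chains ITGA11 and ITGA2 had H3K27me3, with folds of 7.98 and 6.83, and 6.62 and 5.18.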

How the data were processed

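CUT&RUN was done on untreated TC-32 cells with antibodies to FLI1, H3K27ac, H3K27me3, H3K9me3 and IgG. Per the submitters' processing notes, cutadapt 4.4, Bowtie2, Picard 2.17.11 and MACS2 2.1.1 were used with GRCh38/hg38; their settings are not given in the sources used here. Per the file headers and names, the authors called regions for each of the 10 libraries separately, with the IgG library that carries its set letter and number as the control. The deposited fold (a ratio to IgG) and the deposited −log10 q-value and −log10 p-value are the caller's own. The lowest −log10 q was 2.

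Overlapping regions within a list were joined. A FLI1 target was called present with a region in all 4 libraries and a mark with 1 in both replicates, by at least 1 shared base. GENCODE release 44 gave genes and hg38 the sequence. Python 3.11.15, pandas 2.3.3 and scipy 1.17.1 were used, and overlap, run and motif counting were tested on simulated data. Lists got counts beside those of all genes and no test. The only test was the exact permutation of 4 libraries.

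The collagen genes and gene lists were chosen with earlier results of these data known. Genes named in full were those with FLI1, H3K27ac or H3K27me3 at the start in every library, the 5 highest by mean percentile of a shared FLI1 region, those in both libraries of 1 set only, COL1A1, COL1A2, COL3A1, COL4A1, COL4A2, COL6A1, COL6A2 and COL6A3, and pathway genes with FLI1 and H3K27ac, or H3K27me3. IgG libraries entered only through the authors' folds. Alternatives changed the windows, the overlap, the threshold, the libraries required and the repeat length. Some sequences are not reported here.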

Additional observations from a re-analysis of the deposited data

How the results depend on the processing

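The counts of collagen genes moved with window, threshold and libraries required, but stayed on the same side of the share of all genes at the start under every alternative run for the 4 targets. FLI1 at the start ranged from 3 to 9 genes, 9 being the count in any library (54.1% of all genes). With at least 50 percent of the region inside the window it gave 3 (31.7%), without COL1A1, whose summit lies 1.18 kb after the start. From any protein-coding transcript it gave 3 (38.3%), without COL9A3. H3K27me3 at the start gave 14 genes (31.8%). With a −log10 q of at least 5 it gave 4 (9.09%, against 3.81% of all genes). With at least 50 percent of the region inside the window it gave 2 (4.55%, against 2.98%). A count of 2 lies so near the share of all genes that its side carries little information. H3K27ac at the start gave 1 gene, 2 from any protein-coding transcript (14.8% of all genes) and 2 within 5 kb (16.6%). It gave 3 in either replicate (23%) and 0 at −log10 q of at least 5 (2.63%), a share at which 44 genes would hold few or none. Without replicate 1 it gave 3 (19.6%), and without replicate 2 it gave 1 (14.7%). H3K9me3 at the start gave 0, and 2 within 5 kb (5.3% of all genes). At its 1.39% of all genes, 44 genes would hold few or none, so staying below that share carries little information.

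Over the gene and 10 kb, FLI1 gave 17 genes, 10 in the gene alone (42.1% of all genes) and 33 in any library (76.5%). It also gave 33 within 50 kb, the only alternative above the share of all genes (73.9%). With 1 region required to be shared by all 4 libraries, chosen after seeing the data, FLI1 gave 14 (53.1% of all genes). H3K27ac gave 5, and 3 in the gene alone (20.7% of all genes) and 17 within 50 kb (44.8%). It gave 1 at −log10 q of at least 5 (7.86%) and 11 in either replicate (45.2%). Without replicate 1 it gave 10 (41.6%), and without replicate 2 it gave 6 (32%). H3K27me3 gave 20, and 7 at −log10 q of at least 5 (6.53% of all genes). Its cover fell from 3.85% and 2.62% of bases to 2.29% and 1.5% without COL23A1, left out after seeing the data. H3K9me3 gave 15, and 7 in the gene alone (18.7% of all genes) and 3 at −log10 q of at least 5 (7.56%), both below the share of all genes. It gave 31 within 50 kb (44.5% of all genes) and 24 in either replicate (34.9%). Without replicate 1 it gave 15 (26.1%), and without replicate 2 it gave 24 (34.2%). GGAA-repeat regions gave 0, and 1 with at least 3 units (3.66% of all genes). Leaving out libraries, they gave from 0 to 1, the 1 being without FLI1 set B replicate 2 (3.52%). The cause of these moves was not tested.

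The difference in rank between sets reversed for COL11A2, from 7 to -5.1 with percentiles of −log10 q. With the replicate block, libraries of the same number being paired, the 17 differences keep their values, with an exact p = 0.5 (the smallest that 2 pairs allow, as for the 26.9 of COL5A1) or 1. The numbers do not show a shared culture or day. Depth is unknown, so an absent region is not shown to be an absent target.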
